A study of Mus musculus with 12 samples.

Results

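Hdac2, the gene of a class I histone deacetylase that removes acetyl groups from histones as part of repressor complexes, lies on mouse chromosome 10, and 10 protein-coding genes from the same stretch of that chromosome are described here. They are Ddo, Hint3, Rnf146, Echdc1, Ptprk, Cenpw, Trmt11, Ncoa7, Hddc2 and Tpd52l1. The platform annotation gave them 24 probe sets that name 1 gene each, of 34945 such probe sets for 18193 genes and 45101 probe sets in all. The genes were chosen by their place beside Hdac2 and by their signal difference between arrays without and with Hdac2. That difference is therefore given for them as a description, and no p-value for it is read as a test.

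Cardiac ventricles of mouse embryos at embryonic day 16.5 were profiled on 12 single-colour arrays, with 3 biological replicates in each of 4 genotypes. Double-null embryos lacked both Hdac2 and Hopx, Hdac2-null embryos lacked Hdac2 alone, Hopx-null embryos lacked Hopx alone, and wild-type embryos carried both genes. Hopx encodes a cardiac homeodomain protein that acts without contacting DNA. Hdac2 was therefore absent on the 6 double-null and Hdac2-null arrays and present on the 6 Hopx-null and wild-type arrays. The labels call all null groups knockouts and give neither the strain, the kind of allele nor the parents of any embryo.

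A gene that is deleted, trapped or replaced in mice is inherited together with the DNA around it, because recombination seldom separates neighbours on a chromosome. When a mutant allele made in cells of 1 strain is bred into another, nearby genes can stay in the version of the first strain, and such a stretch is known as a passenger segment. A change of the DNA or chromatin at the mutant allele can also act on nearby genes directly. Both follow the genotype of the null gene, as does any effect of the missing protein itself. With genotype as the only label these cannot be told apart here.

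The signal is the deposited probe set intensity on a linear scale, and values below a floor of 82.5 units were raised to it before log2 transformation. Differences by Hdac2 status are the mean of double-null minus Hopx-null and of Hdac2-null minus wild type on the log2 scale, so a negative value means a lower signal without Hdac2. Hdac2 itself followed the labels. Its brightest probe set was between 4.04 and 4.32 units on the 6 arrays without Hdac2 and between 4442 and 5683 units on the 6 arrays with it. All 9 markers of ventricular cardiomyocytes were above the floor, and all 4 neural markers were below it on all 12 arrays. Xist, the noncoding RNA that silences an X chromosome in female cells, exceeded the floor on replicate 1 of every genotype and on wild type 2, which makes 2 of 6 arrays without Hdac2 and 3 of 6 with it.

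Of the 24 probe sets, 16 had at least 1 array above the floor and were tested with 15712 probe sets in all. The other 8 stayed between 4.16 and 41.3 units on all arrays, and they are 2 of the 4 Ddo probe sets, 4 of the 7 Ptprk probe sets, 1 of 2 for Trmt11 and 1 of 2 for Ncoa7. Each of the 10 genes kept at least 1 tested probe set. Along the 497 tested genes of chromosome 10, in the gene order of assembly GRCm38.p6, 9 of the 10 genes lie on 1 side of Hdac2, between 9 tested genes away for Tpd52l1 and 19 for Ptprk. Ddo lies alone on the other side, 13 tested genes from Hdac2. Tested genes are a part of all genes there. Counted in all protein-coding genes, Tpd52l1 lies 23, Ptprk 38 and Ddo 20 genes from Hdac2. The 8 nearest tested genes on each side hold none of the 10.

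The DNA upstream of the starts of Ddo, Hint3 and Rnf146 is shown. Among the genes described, their brightest probe sets overlapped least between arrays without and with Hdac2. The other 2 tested Rnf146 probe sets did overlap. Each run holds the 250 bases before the gene's start, 5′ to 3′ on the gene's strand, from RefSeq on GRCm38.p6, the C57BL/6J reference and not the DNA of these embryos. Ddo is at chr10:40629761-40630010 on the plus strand, Hint3 at chr10:30618367-30618616 on the minus strand, and the outermost of 2 listed Rnf146 starts at chr10:29362443-29362692 on the minus strand. Capitals mark matches, on either strand, to 5 searched motifs: the GC box GGGCGG, the CCAAT box, the TATA motif TATAA, the GATA motif AGATAA and the E-box CACGTG.
Ddo: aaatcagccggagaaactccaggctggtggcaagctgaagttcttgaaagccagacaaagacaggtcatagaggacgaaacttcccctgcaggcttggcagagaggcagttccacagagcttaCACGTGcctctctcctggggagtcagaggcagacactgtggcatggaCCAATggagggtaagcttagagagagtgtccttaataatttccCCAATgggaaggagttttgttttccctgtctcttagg
Hint3: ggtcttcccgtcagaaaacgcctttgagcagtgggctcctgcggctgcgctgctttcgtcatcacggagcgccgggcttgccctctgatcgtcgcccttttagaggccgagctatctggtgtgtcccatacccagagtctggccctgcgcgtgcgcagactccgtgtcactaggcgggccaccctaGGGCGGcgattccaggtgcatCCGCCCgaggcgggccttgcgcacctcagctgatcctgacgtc
Rnf146: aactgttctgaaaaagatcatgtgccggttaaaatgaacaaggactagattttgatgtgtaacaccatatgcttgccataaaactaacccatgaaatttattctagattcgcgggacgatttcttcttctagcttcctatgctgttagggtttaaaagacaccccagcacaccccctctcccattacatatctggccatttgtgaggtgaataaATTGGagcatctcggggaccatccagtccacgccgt

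The Ddo window held 2 CCAAT boxes and 1 E-box, with 3 CpG dinucleotides and 51.2% G and C. The Hint3 window held 2 GC boxes, with 23 CpG dinucleotides and 65.2% G and C. The Rnf146 window held 1 CCAAT box, with 7 CpG dinucleotides and 43.2% G and C. Over the 32851 RefSeq windows of the same length, 33.8% held a CCAAT box, 32.7% a GC box, 22.8% a TATA motif, 9.99% a GATA motif and 6.02% an E-box, and the median window had 6 CpG dinucleotides and 52.4% G and C. No motif was common to all 3 printed windows. Matches that overlap each other were each counted, and a match of these letters says nothing of what binds there.

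Among the 4 enzymes of small molecules, Ddo differed most. Ddo encodes D-aspartate oxidase, a peroxisomal enzyme that breaks down D-aspartate. Its brighter probe set measured 1058, 1154 and 1461 units in double-null and 1125, 706.4 and 1007 units in Hdac2-null ventricles, against 2861, 2244 and 1775 units in Hopx-null and 4475, 2114 and 2108 units in wild-type ventricles. Every array without Hdac2 lay below every array with it, and the gap ran from 1461 to 1775 units. The difference by Hdac2 status was -1.22 on the log2 scale (SE 0.21), 2.33-fold lower without Hdac2. It was -1.55 (SE 0.30) for Hdac2-null minus wild type and -0.89 (SE 0.30) for double-null minus Hopx-null. By absolute size it ranked 10 among 9667 genes represented by 1 probe set each.

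The dimmer Ddo probe set was tested only because it exceeded the floor on the arrays with Hdac2, so it had to differ and adds no separate support. It measured 51.5, 35.6 and 61 units in double-null and 53.2, 63.2 and 59.8 units in Hdac2-null ventricles, all below the floor. In Hopx-null ventricles it measured 194.9, 170.1 and 137.8 units and in wild-type ventricles 328.3, 160 and 138.1 units, all above the floor. After the floor it was at least 2.35-fold lower in Hdac2-null than in wild-type and at least 2.01-fold lower in double-null than in Hopx-null ventricles. In whole ventricles, fewer cells that carry a transcript and less transcript per cell cannot be told apart. Whether strain variants lie under the probe sets of Ddo, Hint3 and Rnf146 could not be looked up. Their part in these signals was not tested.

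**Figure D1:**
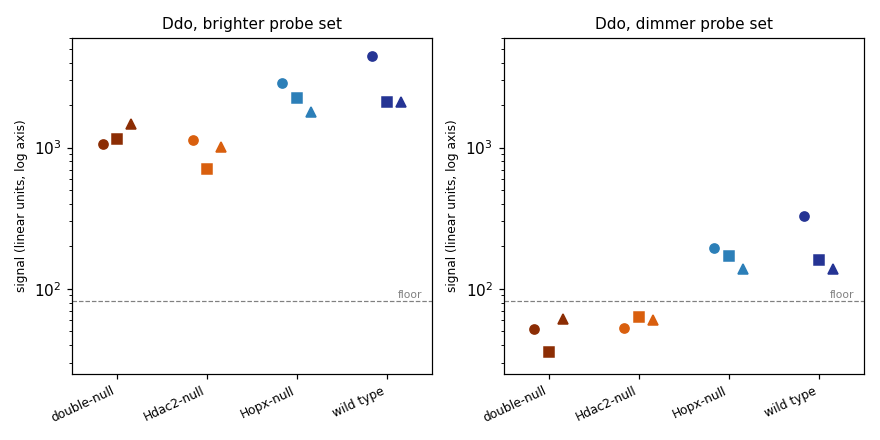
Signal of the 2 tested Ddo probe sets on each array (log axis, linear units) in double-null, Hdac2-null, Hopx-null and wild-type ventricles, with circles, squares and triangles for replicates 1, 2 and 3 and a dashed line at the floor of 82.5 units. In both panels the 6 arrays without Hdac2 lie below the 6 arrays with it, and wild type 1 is the highest array.

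Wild type 1 was the highest array for both Ddo probe sets. It also stood apart in the log2 ratio of 3′ to 5′ Gapdh control signal, a measure of RNA integrity, at 1.33 against 0.84 to 1.07 on the other 11 arrays. In the same ratio for the beta-actin control it lay inside the range of the others, at 2.76 against 2.63 to 2.80. It had the highest summed signal of the atrial, endothelial, leukocyte and fibroblast marker lists. Without wild type 1 the Ddo difference was -1.04 for the brighter and -0.93 for the dimmer probe set. Leaving out an array cannot bring about an overlap, so this is no check of the gap between the groups. No marker list was without overlap between arrays without and with Hdac2. The erythroid markers summed to between 147.4 and 1516 units without Hdac2 and between 129.5 and 668.5 units with it. The liver markers summed to between 30.7 and 579.9 units without Hdac2 and between 24.1 and 119 units with it. Each liver marker had a mean below the floor. The 4 atrial markers summed to between 41910 and 54876 units without Hdac2 and between 49538 and 62002 units with it. The 4 leukocyte markers summed to between 4402 and 5139 units without Hdac2 and between 4919 and 6004 units with it, and 1 of them, the pan-leukocyte gene Ptprc, was below the floor on all 12 arrays. The part of these cells, of RNA integrity and of sex in the Ddo difference was not tested, apart from a fit with Xist status as a term, which gave -1.17 for the brighter and -1.07 for the dimmer probe set.

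Hint3, a histidine triad protein of the family that hydrolyses nucleotide conjugates, was the next largest of the lower genes. It measured 1667, 1557 and 1680 units in double-null and 1525, 1569 and 1888 units in Hdac2-null ventricles, against 2051, 2508 and 2133 units in Hopx-null and 2266, 2261 and 1732 units in wild-type ventricles. The groups overlapped by a single pair of arrays, Hdac2-null 3 at 1888 units and wild type 3 at 1732 units, and leaving out either ended the overlap. The difference was -0.38 (SE 0.09) by Hdac2 status, -0.32 (SE 0.12) for Hdac2-null minus wild type and -0.44 (SE 0.12) for double-null minus Hopx-null. The long noncoding gene Gm20300 overlaps Hint3 in the gene table, and its own brightest probe set measured -0.10 (SE 0.06).

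Echdc1 encodes ethylmalonyl-CoA decarboxylase, which removes a side product of fatty acid synthesis. It measured 521.9, 498.6 and 564 units in double-null and 459.2, 384.3 and 441.6 units in Hdac2-null ventricles, against 557.1, 586.7 and 515.1 units in Hopx-null and 540.5, 586.2 and 466.5 units in wild-type ventricles. The 3 Hdac2-null arrays lay below the 3 wild-type arrays (log2 -0.31, SE 0.12), whereas double-null and Hopx-null arrays overlapped (-0.07, SE 0.12). Hddc2, a HD domain protein of the nucleotide phosphohydrolase family, ran the other way. It measured 3743, 3569 and 3246 units in double-null and 3990, 4746 and 3634 units in Hdac2-null ventricles, against 3979, 3432 and 3044 units in Hopx-null and 2927, 3554 and 3284 units in wild-type ventricles. All 3 Hdac2-null arrays lay above all 3 wild-type arrays (log2 0.34, SE 0.12), and double-null and Hopx-null arrays overlapped (0.02, SE 0.12).

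Of the genes that modify proteins or RNA, Rnf146 had a brightest probe set without overlap. Rnf146 encodes a ubiquitin ligase that recognises poly-ADP-ribosylated proteins and, through axin, acts on Wnt signalling. This probe set measured 3910, 4053 and 4159 units in double-null and 4098, 3857 and 4099 units in Hdac2-null ventricles, against 5310, 4207 and 4500 units in Hopx-null and 4836, 4342 and 4360 units in wild-type ventricles. The highest array without Hdac2 and the lowest with it were only 4159 and 4207 units, and the difference was -0.18 (SE 0.06), 1.14-fold lower. The other 2 Rnf146 probe sets overlapped between the groups. The dimmest measured -0.18 (SE 0.13), or -0.08 without double-null 3, and the middle one 0.06 (SE 0.15), so the 3 did not share a direction. Rnf146 and Echdc1 overlap each other in the gene table.

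Trmt11, the catalytic subunit of a tRNA guanosine methyltransferase, and Ptprk, a receptor tyrosine phosphatase of cell contacts, overlapped between the groups on every tested probe set. Trmt11 ranged from 199.1 to 336.3 units with a median of 286.8 units without Hdac2 and from 281.9 to 331.5 units with a median of 306.6 units with it (log2 -0.12, SE 0.12), and the difference was -0.02 without Hdac2-null 2. The brightest Ptprk probe set ranged from 4152 to 4814 units without Hdac2 and from 3476 to 4534 units with it (log2 0.13, SE 0.06). The other 2 tested Ptprk probe sets had the opposite sign, at -0.15 (SE 0.08) for the second brightest (-0.09 without Hdac2-null 2) and -0.16 (SE 0.14) for the dimmest. The dimmest measured -0.05 without wild type 1. No common direction can therefore be given for Ptprk.

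The nuclear proteins and the remaining gene were higher without Hdac2 on their brightest probe sets. Cenpw, a histone-fold protein of the centromere that is needed for kinetochore assembly, measured 1213, 1174 and 1211 units in double-null and 1042, 1100 and 921.5 units in Hdac2-null ventricles, against 885, 1023 and 636 units in Hopx-null and 774.7, 968.4 and 1075 units in wild-type ventricles. The 3 double-null arrays lay above the 3 Hopx-null arrays (log2 0.53, SE 0.17), and Hdac2-null and wild-type arrays overlapped (0.13, SE 0.17). Its other tested probe set measured -0.01 (SE 0.11) by Hdac2 status, so the difference rests on 1 of 2 probe sets. Ncoa7, a nuclear receptor coactivator and oxidation resistance gene, ranged from 4380 to 4554 units without Hdac2 and from 3532 to 4930 units with it (log2 0.09, SE 0.07), and the difference was 0.02 without wild type 1. Tpd52l1, a member of the D52 family of vesicle trafficking proteins, ranged from 789.2 to 1285 units without Hdac2 and from 738.2 to 1077 units with it (log2 0.22, SE 0.12).

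**Figure D2:**
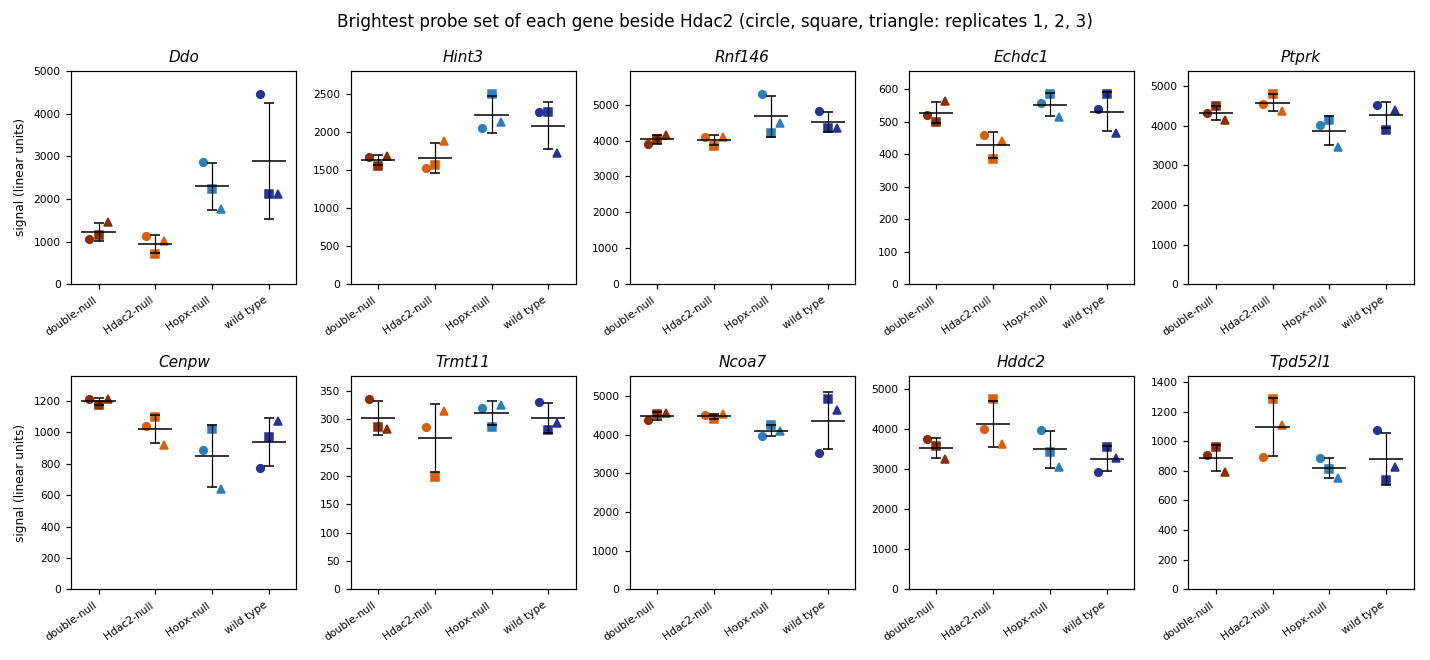
Signal (linear units from 0) of the brightest probe set of each of the 10 genes on every array, in double-null, Hdac2-null, Hopx-null and wild-type ventricles, with symbols for replicates 1 to 3, a line at each mean and bars of 1 SD (n = 3). Ddo and Rnf146 have all 6 arrays without Hdac2 below all 6 with it, Hint3 has 1 pair of arrays out of that order, and the other 7 genes overlap further.

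By their brightest probe sets, 5 of the 10 genes were lower without Hdac2 (Ddo, Hint3, Rnf146, Echdc1 and Trmt11) and 5 were higher (Cenpw, Tpd52l1, Hddc2, Ptprk and Ncoa7). The genes thus did not share a direction, and their median difference was -0.02, beside -0.01 over all 9667 genes. Their median absolute difference was 0.19, beside 0.06 over all genes. Without the dimmer Ddo probe set, 2 of the other 15 tested probe sets had no overlap between arrays without and with Hdac2, both lower without it (3 of 16 with it), where 0.299% of all 15712 probe sets were lower without overlap, 0.28% higher without overlap and 0.579% showed no overlap in either direction. Limma called 4 of 15712 probe sets (0.0255%) for Hdac2 status, and 0 of these 15, of which 6 had an unadjusted p under 0.05, as had 9.13% of all probe sets. The genes were listed by their difference in this same contrast, so the choice itself favours large differences, low unadjusted p and missing overlap among them. The counts set beside all probe sets are therefore no test of enrichment, and nothing is read from them.

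The difference had the same sign in double-null minus Hopx-null and in Hdac2-null minus wild type for 14 of the same 15 probe sets and for all 10 brightest ones, where 54.4% of all probe sets and 54.3% of all genes did. The exception was the second Cenpw probe set. These contrasts share no arrays, but all 12 arrays entered the choice of the list, so this count is a description too.

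**Figure D3:**
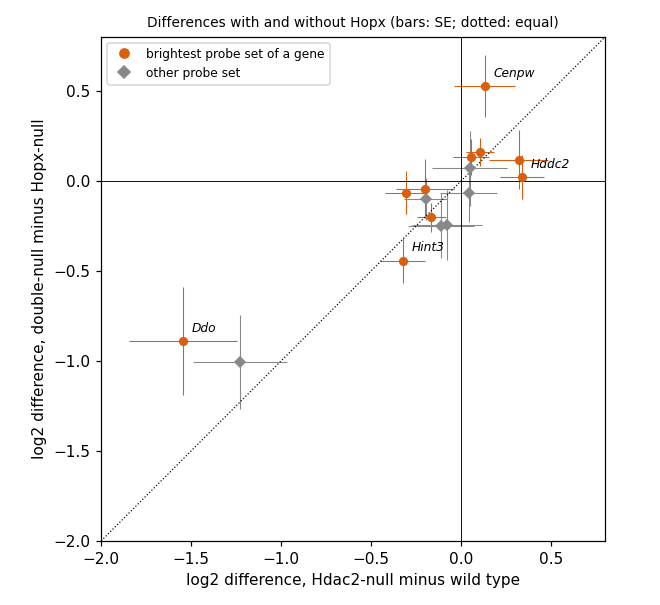
Log2 difference of double-null minus Hopx-null (vertical) against Hdac2-null minus wild type (horizontal) for the 16 tested probe sets, with bars of 1 SE and a dotted line where both are equal. Both Ddo probe sets lie far from the others at the lower left, and 15 of 16 points have the same sign on both axes.

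Whether a gene differed by Hdac2 status by the same amount with and without Hopx was tested as the interaction of the 2 losses, on the same arrays that chose the list. Limma called 0 of the 15 probe sets, the dimmer Ddo probe set left out, with adjusted p between 0.951 and 0.997 and 0 at an unadjusted p under 0.05, beside 0 called of 15712 (0%) and 4.33% at an unadjusted p under 0.05. The interaction of the brighter Ddo probe set was 0.65 on the log2 scale (SE 0.42, adjusted p = 0.951 from limma). The dimmer one gives no interaction, since its double-null and Hdac2-null arrays were all at the floor. With that SE the Ddo estimate leaves room both for an interaction of its own size and for none. The SE was smallest for the brightest probe sets of Ptprk (0.06, SE 0.11) and Rnf146 (-0.04, SE 0.11).

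Loss of Hopx was not used to list the genes, and it gave the test that is independent of the list. Averaged over arrays without and with Hdac2, the Hopx difference of the same 15 probe sets ran from -0.26 to 0.18 on the log2 scale, and limma called none of them (adjusted p between 0.554 and 0.99, 0 at an unadjusted p under 0.05, beside 0.0127% called and 8.96% at an unadjusted p under 0.05 over all probe sets). The median absolute difference was 0.08 over the 15, beside 0.07 over all probe sets. Ddo measured 0.06 (SE 0.21) on the brighter probe set, Hint3 0.04 (SE 0.09) and the brightest Rnf146 probe set 0.03 (SE 0.06).

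Split by Hdac2 status, Hopx-null minus wild type ran from -0.27 to 0.17 over the 15 probe sets (limma adjusted p = 1 for each, 0 at an unadjusted p under 0.05, beside 0.0127% called and 2.83% over all). Double-null minus Hdac2-null ran from -0.35 to 0.39 (adjusted p between 0.386 and 1, beside 0.0191% called). A single probe set, that of Echdc1, had an unadjusted p under 0.05 there, where 11.5% of all probe sets did. Echdc1 was at 528 ± 33.2 units in double-null and 428 ± 39.2 units in Hdac2-null ventricles (SD, n = 3 each, log2 0.30, SE 0.12, limma adjusted p = 0.386). It did not pass the test.

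The remaining genes of the neighbourhood were taken by gene order alone, with 1 probe set per gene. Among the 25 tested genes on each side of Hdac2, 40 are not on the list. None of these 40 was called for Hdac2 status by limma (7 at an unadjusted p under 0.05, 17.5%, beside 0.0207% called and 8.96% at that unadjusted level over all genes), and none lay without overlap between arrays without and with Hdac2, beside 0.61% of all genes. Their median absolute difference was 0.08, between that of the listed genes (0.19) and that of all genes (0.06). Their sign agreed between double-null minus Hopx-null and Hdac2-null minus wild type in 21 of 40 (52.5%). These 40 are what the choice of the listed genes left of the neighbourhood.

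The 5 tested genes nearest to Hdac2 on each side all lay within -0.23 and 0.14. Marcks, an actin-binding substrate of protein kinase C and the nearest tested gene on the side of Ddo, ranged from 13213 to 14447 units without Hdac2 and from 12885 to 14046 units with it (log2 0.03, SE 0.03). Lama4, a laminin chain of vessel basement membranes, measured -0.06 (SE 0.04), Fam229b -0.23 (SE 0.11) and the Src family kinase Fyn -0.03 (SE 0.06). On the other side Nt5dc1 measured 0.01 (SE 0.07), Tspyl4 0.09 (SE 0.12), Tspyl1 0.13 (SE 0.07) and Dse, a dermatan sulphate epimerase, 0.14 (SE 0.06). The kinase gene Frk exceeded the floor on 2 arrays without Hdac2 and 0 with it, and Traf3ip2, an adaptor of an interleukin receptor, on 1 without and 2 with it, so the floor sets their differences and these are not given. No gene of these 10 was called (limma adjusted p between 0.529 and 0.97).

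The 22 tested genes between Ptprk and Ddo that are not on the list had a median absolute difference of 0.05, and 0 of them were without overlap. Within 25 tested genes on each side, the 6 unlisted genes with the largest differences were E130307A14Rik (0.48, SE 0.20), Smpd2, a neutral sphingomyelinase (-0.33, SE 0.27), Mfsd4b1 (-0.29, SE 0.16), the mitochondrial ATPase gene Afg1l (-0.28, SE 0.09), Ppil6 (0.27, SE 0.12) and Wasf1, an actin regulator of the WAVE complex (-0.26, SE 0.08). E130307A14Rik ranged from 315.3 to 439.9 units without Hdac2 and from 189.1 to 416.3 units with it. Wasf1 ranged from 3676 to 4208 units without Hdac2 and from 3883 to 5431 units with it. All 6 overlapped between the groups.

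**Figure D4:**
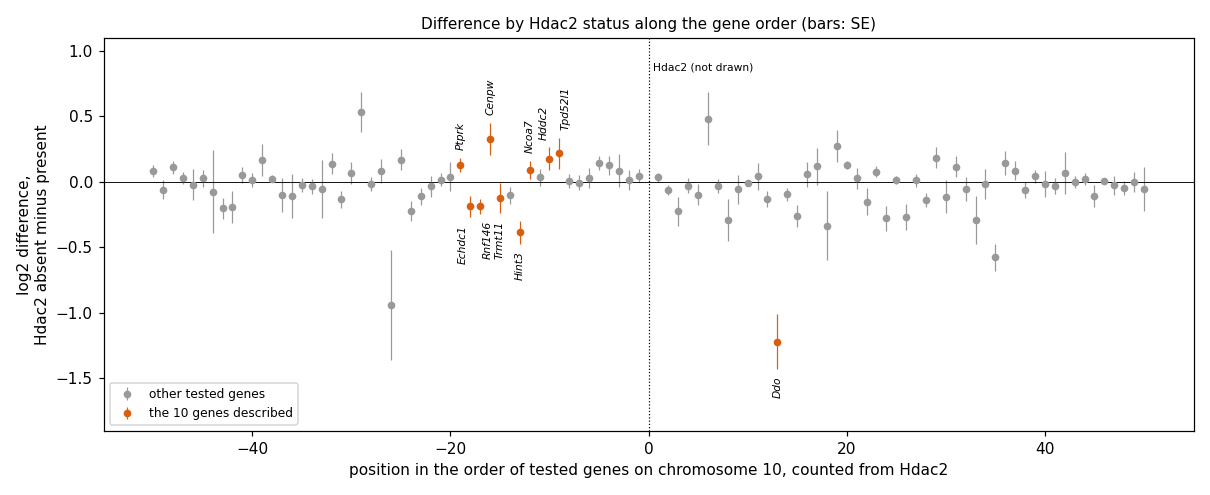
Log2 difference by Hdac2 status (Hdac2 absent minus present, bars of 1 SE) against the position of each tested gene in gene order on chromosome 10, counted from Hdac2 at 0, for 50 genes on each side. Ddo at -1.22 is the lowest gene of the stretch, the other 9 listed genes lie between -0.38 and 0.33, and the 5 nearest genes on each side of Hdac2 lie between -0.23 and 0.14.

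By window, the median absolute difference was 0.06 for the 10 tested genes on each side of Hdac2, 0.11 for 25 and 0.08 for 50, listed genes included. Without the listed genes it was 0.05 for 10, 0.08 for 25 and 0.07 for 50. It was 0.06 for the 310 tested genes of chromosome 10 beyond 100 genes from Hdac2 and 0.06 for the 9170 genes elsewhere. Genes without overlap made up 2 of 50 within 25 genes on each side, both on the list and both lower without Hdac2. Within 50 genes on each side they made up 3 of 100, all lower, with the unlisted 2310075K07Rik added. Beyond 100 genes they made up 2 of 310, both higher, beside 0.61% of all genes. The windows were not tested as sets.

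Likeness to Ddo was measured as the Pearson correlation of log2 signal over the 12 arrays with the brighter Ddo probe set, over the 9667 genes, and is a description that reflects the gap by Hdac2 status. The highest values belonged to Mlf1 (0.92), a gene of the myeloid leukaemia factor family on chromosome 3, the extracellular protease gene Adamts15 (0.90), Sh3bp5l (0.89), Aasdhppt (0.89) and Lrrc8d (0.89), a subunit of volume-regulated anion channels. The lowest belonged to Zfp532 (-0.95), Fam126a (-0.89), Trps1, a GATA-type repressor (-0.88), Ammecr1l (-0.88) and Mbtd1 (-0.88). None of these 10 genes is on chromosome 10. Among the listed genes the values were highest for Rnf146 (0.84), Hint3 (0.74) and Echdc1 (0.68) and lowest for Hddc2 (-0.65).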

How the data were processed

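Total RNA of the ventricles was extracted with Trizol, amplified from a poly(T) primer and labelled with biotin, per the labels' protocols. The authors deposited 1 intensity per probe set and array; MAS5 is named per the submitters' processing notes, with no version. In the deposited intensities 48.6% of all values lie within 1 unit of 4.5, a shape not usual for MAS5, and no further normalisation was applied. Control probe sets (64) were left out of the fits. The platform annotation gave 34945 probe sets 1 gene, 932 several and the rest none. Symbols and gene order come from the GRCm38.p6 gene table, which matched 34741 probe sets. The floor, 82.5 units, is 0.1 times the mean, over arrays, of the 2% trimmed mean signal. Probe sets under the 40th percentile of mean log2 signal (4.76 units), or at the floor on all 12 arrays, were not tested.

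The 12 arrays entered 1 fit with a mean for each genotype in limma 3.58.1 (R 4.3.3), with an intensity trend, 8 residual degrees of freedom and Benjamini-Hochberg adjustment over all 15712 probe sets, and calls were made at an adjusted p of 0.05. A second fit used 1 probe set per gene, the brightest (9667 genes). It gave the values of genes taken by gene order. The fit was tested on simulated data. Named genes were the 10 listed genes, Hdac2, the 5 nearest tested genes on each side, the 6 largest differences among unlisted genes within 25 on each side, and the 5 highest and 5 lowest correlations with Ddo. The listed genes, windows and tests were chosen with earlier results of these data known. The labels call replicates biological, and 3 arrays per genotype limit the precision.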

Additional observations from a re-analysis of the deposited data

Results flagged for a closer look

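On 2 of the 16 tested probe sets a single array stood far from the other 5 arrays with Hdac2, and in both cases it was wild type 1. The dimmer Ddo probe set measured 328.3 units on wild type 1, where the next array measured 194.9 units and the lowest 137.8 units, a gap of 0.701 of the range. The dimmest of the 3 tested Ptprk probe sets measured 1297 units on wild type 1, where the next array measured 917.2 units and the lowest 773.4 units, a gap of 0.725 of the range. In all 32 groups of 6 arrays were examined, and chance alone marks about 1 in 20 such groups. The brighter Ddo probe set also had its highest signal on wild type 1, without standing as far apart.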

How the results depend on the processing

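The brighter Ddo probe set stayed lower without Hdac2 under all 21 alternatives, between -1.22 and -1.04 with another floor, normalisation, filter, weighting, block or Xist term, and between -1.31 (without wild type 3) and -1.04 (without wild type 1) with 1 array left out. The dimmer one measured -1.75 without the floor, since the floor raised its 6 arrays without Hdac2. The number of listed probe sets without overlap was 3, the dimmer Ddo probe set included, beside 0.579% of all probe sets. It was 2 with 1 probe set per gene. With 1 array left out it can only stay or rise, and it reached 4 without Hdac2-null 3 or wild type 3, where Hint3 was added. Weights, trend, block and Xist term cannot change it, since overlap is read from the signals alone. No listed probe set was called in any of the 3 Hopx contrasts or in the interaction under any of the 21 alternatives. The lowest adjusted p was 0.0644 (limma, double-null minus Hdac2-null with array weights), against 0.386 with equal weights. The small differences of the middle Rnf146 and the other Cenpw probe set kept their sign in 16 of 20 and in 15 of 20 alternatives. The Xist term was added after the data were seen.

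Within 25 genes on each side, 2 genes were without overlap, and 2 to 4 with 1 array left out; without wild type 3 they were Ddo, Rnf146, Hint3 and Afg1l. The share of all probe sets without overlap was 0.579% on all arrays and 0.713% to 2% with 1 array left out, at 0.938% or more without double-null 3, Hdac2-null 2 or 3, Hopx-null 3 or wild type 3 (the highest), since fewer arrays overlap less often. Calls over all probe sets for Hdac2 status numbered 4, and 9 without the floor, 9 with array weights, 2 with 1 probe set per gene and 3 to 20 with 1 array left out (20 without wild type 3). For Hdac2-null minus wild type there were 3, and 6 without the floor and 3 to 13 with 1 array left out (13 without wild type 3, 5 without Hdac2-null 1). For double-null minus Hopx-null there were 3, and 2 to 5 with 1 array left out (5 without Hopx-null 1). For Hopx status and Hopx-null minus wild type there were 2 each, and 1 each with 1 probe set per gene. For double-null minus Hdac2-null there were 3, and 1 with 1 probe set per gene, 1477 with array weights and 2 to 5 with 1 array left out (5 without Hdac2-null 1). For the interaction there were 0, and 1 with an offset of 64 in place of the floor and 0 to 2 with 1 array left out (2 without wild type 3). The causes were not tested.

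Replicate numbers are shared between genotypes, and same-numbered arrays deviated together (r across probe sets over 0.1) in 11 of 18 pairs. Of the 12 arrays, 8 were closest to their own number. Same-numbered arrays thus shared part of their deviation, though the main fit did not take them as pairs. All 3 pairs of Hopx-null and wild type were over 0.1 (0.178 to 0.489), as were all 6 pairs of arrays numbered 1. The arrays numbered 1 all exceeded the floor for Xist, as did wild type 2. With the replicate number as a block, 0 listed probe sets were called in the Hopx contrasts or the interaction. The lowest adjusted p from limma was 0.323 for double-null minus Hdac2-null, 0.422 for Hopx status and 0.821 for the interaction. The block cannot change the Ddo difference of -1.22, since every replicate number occurs in every genotype. It cannot change the overlap either, which is read from the signals alone.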

Other observations

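A further gene of the chromosome, chosen after its values were seen, is 2310075K07Rik, which lies 35 tested genes from Hdac2 on the side of Ddo and was not on the list. It ranged from 197.3 to 272.6 units without Hdac2 and from 274.6 to 369.7 units with it, so the groups did not overlap, and the difference was -0.58 (SE 0.10, limma adjusted p = 0.15). By absolute size it ranked 99 of 9667 genes. Enpp3, an ectonucleotidase gene 26 tested genes from Hdac2 on the other side, also chosen after its values were seen, had the second largest difference of the 50 genes on each side (-0.94, SE 0.42). It was -0.07 (SE 0.59) for double-null minus Hopx-null and -1.82 (SE 0.59) for Hdac2-null minus wild type. It ranged from 85.2 to 809.1 units without Hdac2 and from 520.4 to 797.2 units with it, so the groups overlapped widely.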
